A study of Mus musculus with 10 samples.

Results

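The liver makes glucose when food is withdrawn, and the genes that run and mark this fasting response are described here in mice fed iso-α-acids and in mice fed a control diet. The set holds 10 genes, listed by symbol, and the list was drawn up with earlier results of these data known. They are the gluconeogenic enzymes Pck1, G6pc, Fbp1 and Pcx, the aminotransferases Tat, Gpt2 and Got1, and the hormone-responsive genes Igfbp1, Sik1 and Irs2. Each gene had 1 probe set, so the set is 10 of the 22206 probe sets on the array and 10 of its 19505 named genes. No member was missing from the array annotation. None was flat either, where flat means a standard deviation below 0.001 log2 units over all arrays, which was the case for 19767 probe sets (89%). The other 2439 probe sets, called varying, included all 10 members.

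Liver RNA was measured on 10 arrays, with 1 mouse on each. The iso-α-acids group held 5 male C57BL/6NCrSlc mice, 8 weeks old at purchase, that ate AIN-93G diet with 0.5% (w/w) iso-α-acids, the bitter acids of hops, for 1 week. The control group held 5 such mice, pair-fed plain AIN-93G diet over the same week. All mice of both groups, the controls included, were injected i.p. with acetaldehyde at 200 mg/kg, and livers were taken 5 h later, so no level of an uninjected liver stands beside these values. Whether food was withheld before sampling is not given in the sources used here. According to the study's methods, the arrayed mice were picked from larger groups as representative in serum enzyme values, so they were not a random draw. The serum enzymes of the study were AST and ALT, and as background Got1 encodes the cytosolic AST and Gpt2 an ALT. The p-values measure the spread between these picked mice.

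In the fasted liver, lactate, amino acids and glycerol are turned into glucose. Glucagon, acting through cyclic AMP and the factor CREB, and glucocorticoids, acting through their nuclear receptor, switch on the genes of this route. Insulin acts against them by keeping the forkhead factor FOXO1 out of the nucleus, and after a meal their transcripts fall quickly, which makes several of them classical readouts of feeding state in mouse liver.

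The promoters of 9 of the 10 genes were found among RefSeq promoter windows of the mouse assembly GRCm38.p6, which run from 250 bases before to 50 after a gene's start, with 2 windows for Pcx. Sik1 had no entry. Letters known for the hormones named above were searched on both strands. The core of the cyclic AMP response element, TGACG, which also lies inside the full element TGACGTCA, was found in Pck1 alone among the members, against 20.8% of all 32851 windows, and the full element was found in no member and in 1.79% of windows. The insulin response element core TGTTTTG was found in G6pc, Igfbp1 and Irs2, and in 6.28% of windows. The forkhead consensus TGTTTAC (3.65% of windows) and the core of the glucocorticoid element TGTTCT (19% of windows) were found in none of the members' windows. A match is a description of letters and no evidence of a bound site. The 250 bases before the start are printed for Pck1, G6pc and Igfbp1, because these genes had the widest spread between mice among the members and each held a match, which is in capitals.
Pck1, plus strand, chr2:173152823-173153072: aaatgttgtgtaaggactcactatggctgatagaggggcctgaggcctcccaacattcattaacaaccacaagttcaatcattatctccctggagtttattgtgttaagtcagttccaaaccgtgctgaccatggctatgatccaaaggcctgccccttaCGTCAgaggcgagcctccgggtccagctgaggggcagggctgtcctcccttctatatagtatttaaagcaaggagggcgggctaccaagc
G6pc, plus strand, chr11:101367466-101367715: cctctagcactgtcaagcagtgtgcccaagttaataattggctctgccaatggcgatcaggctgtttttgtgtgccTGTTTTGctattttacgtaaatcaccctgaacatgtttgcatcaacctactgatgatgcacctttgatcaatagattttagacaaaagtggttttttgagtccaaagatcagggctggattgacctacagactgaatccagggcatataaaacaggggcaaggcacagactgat
Igfbp1, plus strand, chr11:7197537-7197786: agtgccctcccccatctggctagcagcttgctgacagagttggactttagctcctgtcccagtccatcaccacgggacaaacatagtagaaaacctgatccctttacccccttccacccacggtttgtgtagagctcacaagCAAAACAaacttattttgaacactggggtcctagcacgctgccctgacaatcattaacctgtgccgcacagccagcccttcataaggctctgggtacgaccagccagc
The capitals in Pck1 are TGACG read on the opposite strand and begin 90 bases before the start. Those in G6pc are TGTTTTG and begin 174 bases before the start, and those in Igfbp1 are TGTTTTG on the opposite strand, 108 bases before the start. In Irs2 the same letters lay 37 bases before the start.

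None of the 10 genes passed the main test, limma with Benjamini-Hochberg adjustment over all 22206 probe sets. In the whole series this test called 0.59% of probe sets higher and 0.171% lower in the iso-α-acids group, and among varying probe sets 5.13% higher and 1.07% lower. An unadjusted limma p below 0.05 was reached by 3 members, Gpt2, Got1 and Igfbp1, against 9.83% of all probe sets and 37.3% of varying ones. In no member were the groups free of overlap, whereas 3.18% of all probe sets and 19.4% of varying ones had none. The mean was higher in the iso-α-acids group for 4 members and lower for 6, and the median difference over the 10 genes was -0.13 log2 units, beside -7.01e-07 over all named genes and 0.01 over the varying ones. Rank products, the test of the study's methods, called 3 members higher (Igfbp1, Gpt2 and Pcx) and 4 lower (Got1, Pck1, Fbp1 and G6pc). That test called 3.72% of all probe sets higher and 3.19% lower, 6.9% in all. Since flat probe sets are seldom called, varying probe sets are the closer comparison for genes that all vary, and of these it called 33.5% higher and 28.4% lower, 61.9% in all, so 7 of 10 members is a share near the background. When rank products were run over the varying probe sets alone, all 7 calls were lost, and 93 probe sets were called higher and 75 lower. The rank products calls of single members are those over all probe sets.

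**Figure D1:**
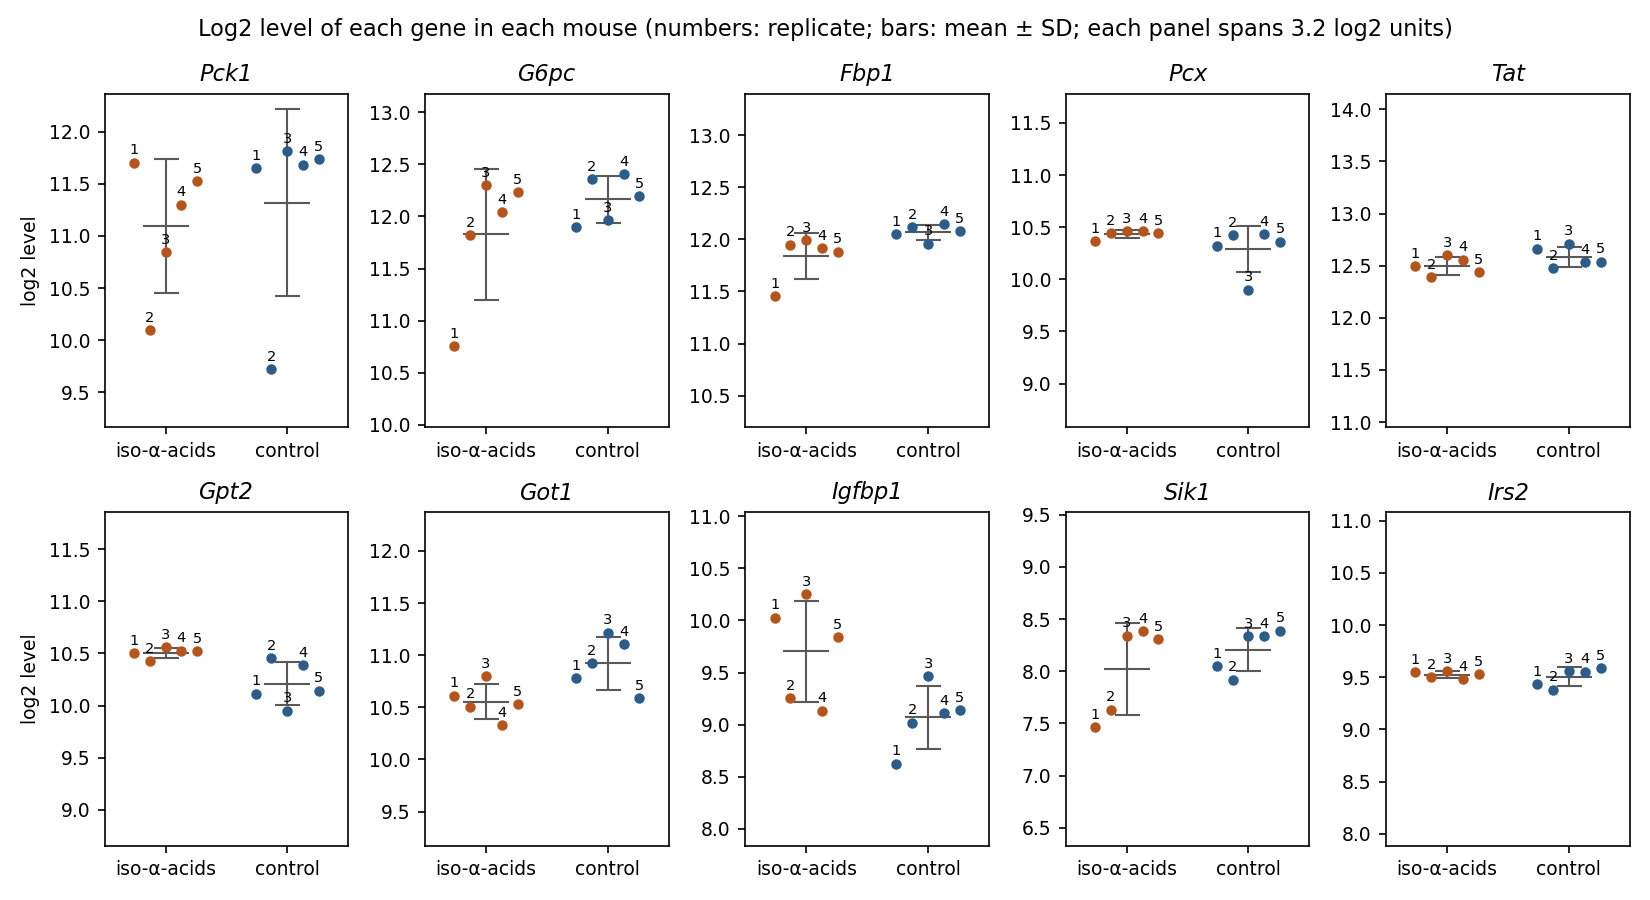
Log2 level of each of the 10 genes in each mouse, with iso-α-acids mice on the left and control mice on the right of each panel. Points are mice numbered by replicate, bars are the mean ± SD of 5 mice, and every panel spans the same range of log2 units, so that the wide spread of Pck1, G6pc and Igfbp1 can be set against the narrow spread of Tat and Irs2.

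Pck1, the cytosolic phosphoenolpyruvate carboxykinase that commits oxaloacetate to glucose synthesis (chr2:173153073-173159274), varied most among the members. Its log2 level was 11.70, 10.10, 10.85, 11.30 and 11.52 in iso-α-acids replicates 1 to 5. In control replicates 1 to 5 it was 11.65, 9.72, 11.81, 11.68 and 11.74. A low mouse stood in each group, replicate 2 in both cases. Levels spanned 3.04-fold among iso-α-acids mice and 4.26-fold among controls, and the standard deviation over the 10 arrays ranked 84 of 2439 varying probe sets. The difference between diets was -0.23 log2 units (SE 0.483, 95% confidence interval -1.33 to 0.88, limma adjusted p = 0.942, exact permutation test two-sided p = 0.603). With 5 mice against 5 the smallest p of that test is 0.00794. Without control replicate 2 the difference was -0.63, and without iso-α-acids replicate 2 it was 0.02. The rank products call (lower, FDR 0.00118) stands beside a mean difference whose sign rests on 1 mouse.

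G6pc encodes the catalytic subunit of glucose-6-phosphatase, the last step before glucose leaves the hepatocyte (chr11:101367716-101377903). Its log2 level was 10.76, 11.82, 12.30, 12.04 and 12.23 in iso-α-acids mice, against 11.90, 12.36, 11.96, 12.40 and 12.19 in controls. The lowest value belonged to iso-α-acids replicate 1, which differed by -1.34 log2 units from the mean of the other 4 mice of its diet. The ranges of the remaining mice overlapped, though iso-α-acids replicate 2 (11.82) was also below every control. Means were 11.83 ± 0.629 in iso-α-acids mice and 12.16 ± 0.227 in controls (SD, n = 5 each), a difference of -0.33 (SE 0.293, limma adjusted p = 0.808). Without iso-α-acids replicate 1 it was -0.06, and the rank products call (lower, FDR 0.0147) was lost.

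Fbp1, fructose-1,6-bisphosphatase, works upstream of glucose-6-phosphatase (chr13:62864753-62888298). The iso-α-acids mice had log2 levels of 11.45, 11.95, 11.99, 11.92 and 11.88 and the controls 12.05, 12.11, 11.96, 12.14 and 12.08. All 5 iso-α-acids mice were below the control mean and 4 of them below every control. The exception, iso-α-acids replicate 3, overlapped only control replicate 3. The difference was -0.23 (SE 0.100, 95% confidence interval -0.46 to 0.0004, limma adjusted p = 0.509, exact permutation test two-sided p = 0.0159). Iso-α-acids replicate 1 was again the lowest, and without it the difference was -0.13 (SE 0.040, limma adjusted p = 0.202).

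Pcx, pyruvate carboxylase, makes oxaloacetate from pyruvate in mitochondria (chr19:4510472-4621752). Levels in iso-α-acids mice were 10.36, 10.44, 10.46, 10.46 and 10.44, and in controls 10.32, 10.42, 9.90, 10.43 and 10.36. The iso-α-acids mice hardly differed from each other, and 4 of 5 exceeded every control, though by little. Control replicate 3 was low. The difference was 0.15 (SE 0.0986, limma adjusted p = 0.708), and without control replicate 3 it was 0.05, with the rank products call (higher, FDR 0.0104) lost.

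**Figure D2:**
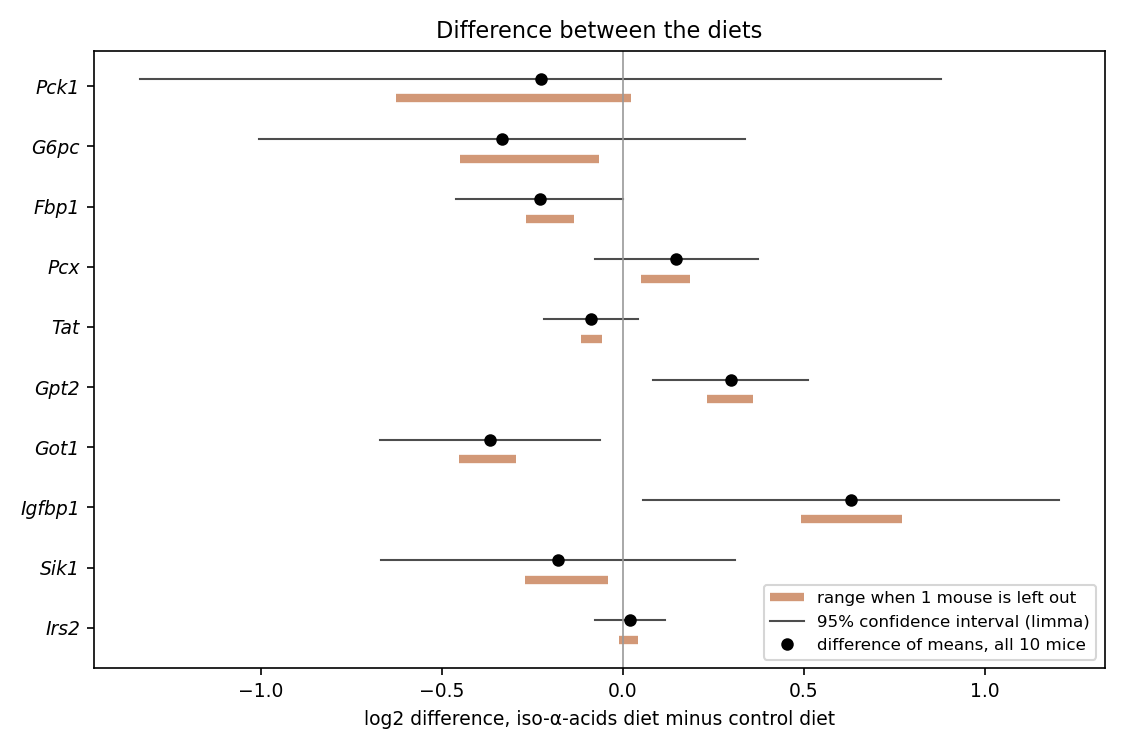
Difference in mean log2 level, iso-α-acids minus control, for the 10 genes. Points are the difference over all 10 mice, thin lines the 95% confidence interval from limma, and thick bars the range of the difference when 1 mouse at a time is left out. The bar crosses 0 for Pck1 and Irs2, and the interval lies off 0 for Gpt2, Got1 and Igfbp1 before adjustment for the number of probe sets.

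The aminotransferases feed amino acid carbon into this route, and 2 of them had opposite signs. Gpt2, the mitochondrial alanine aminotransferase (chr8:85492576-85528902), was at 10.51, 10.43, 10.56, 10.52 and 10.52 in iso-α-acids mice and at 10.11, 10.46, 9.95, 10.39 and 10.14 in controls. Every iso-α-acids mouse was above the control mean, and 4 of 5 were above all controls. Only control replicate 2 reached into their range. The difference was 0.30 (1.23-fold, SE 0.0933, 95% confidence interval 0.08 to 0.51), with an exact permutation test two-sided p of 0.0159. It did not pass limma over all probe sets (adjusted p = 0.297) and did when the fit was restricted to varying probe sets (adjusted p = 0.0473). That restricted fit called 13.4% of varying probe sets higher and 6.89% lower, and Gpt2 was the 1 member it called. Leaving out 1 mouse at a time gave 0.23 to 0.36.

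Got1, the cytosolic aspartate aminotransferase and a part of the malate-aspartate shuttle (chr19:43499752-43524605), had log2 levels of 10.61, 10.50, 10.80, 10.33 and 10.53 in iso-α-acids mice, against 10.78, 10.92, 11.22, 11.10 and 10.59 in controls. All iso-α-acids mice were below the control mean and 3 were below every control. Means were 10.55 ± 0.169 in iso-α-acids mice and 10.92 ± 0.251 in controls (SD, n = 5 each), a difference of -0.37 (0.775-fold, SE 0.133, 95% confidence interval -0.67 to -0.06, limma adjusted p = 0.383). The exact permutation test gave a two-sided p of 0.0397, and the restricted fit an adjusted p of 0.0719. Rank products called it lower (FDR 0.000884).

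The other enzymes of the same reactions give context. Got2, the mitochondrial aspartate aminotransferase, differed by 0.11 (SE 0.0303, limma adjusted p = 0.213), opposite in sign to Got1. Gpt, the other alanine aminotransferase gene, differed by 0.17 (SE 0.173, limma adjusted p = 0.845), and by 0.02 without iso-α-acids replicate 1, which held its highest level, 10.13. Neither passed limma over all probe sets. Tat, the tyrosine aminotransferase long used as a glucocorticoid-induced liver enzyme (chr8:109986078-109999804), was at 12.49, 12.39, 12.60, 12.56 and 12.44 in iso-α-acids mice and at 12.66, 12.48, 12.71, 12.53 and 12.54 in controls. The groups overlapped in part of that narrow range, with 2 iso-α-acids mice below every control and 2 controls above every iso-α-acids mouse. The difference was -0.09 (SE 0.0569, 95% confidence interval -0.22 to 0.04, limma adjusted p = 0.698).

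Igfbp1, a secreted binding protein for insulin-like growth factors whose liver transcript insulin lowers (chr11:7197787-7202546), had the largest mean difference among the 10 genes. Its log2 level was 10.03, 9.26, 10.25, 9.13 and 9.84 in iso-α-acids mice and 8.63, 9.02, 9.47, 9.11 and 9.14 in controls. Iso-α-acids replicates 1, 3 and 5 lay above every control, while replicates 2 and 4 lay among them. Means were 9.70 ± 0.487 in iso-α-acids mice and 9.07 ± 0.302 in controls (SD, n = 5 each), a difference of 0.63 (1.55-fold, SE 0.251, 95% confidence interval 0.06 to 1.20). It did not pass limma (adjusted p = 0.448 over all probe sets and 0.0962 over varying ones), and the exact permutation test gave a two-sided p of 0.0556. Rank products called it higher (FDR 0.000592). Leaving out 1 mouse at a time kept the difference between 0.49 and 0.77.

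Sik1, a kinase that CREB induces and that restrains CREB's coactivators (chr17:31844248-31855804), was at 7.47, 7.63, 8.34, 8.39 and 8.31 in iso-α-acids mice and at 8.05, 7.92, 8.33, 8.33 and 8.39 in controls. Iso-α-acids replicates 1 and 2 were the lowest of the 10 mice and the other three sat with the high controls. The difference was -0.18 (SE 0.214, limma adjusted p = 0.873), and -0.04 without iso-α-acids replicate 1. Irs2, the insulin receptor substrate whose transcript rises in the fasted liver (chr8:10984681-11008929), was nearly level. It was at 9.55, 9.50, 9.56, 9.48 and 9.53 in iso-α-acids mice and at 9.43, 9.38, 9.56, 9.55 and 9.59 in controls, a difference of 0.02 (SE 0.0421, 95% confidence interval -0.08 to 0.12, limma adjusted p = 0.937). The whole range of Irs2 over the 10 mice was 1.15-fold, against 3.13-fold for G6pc and 3.09-fold for Igfbp1.

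**Figure D3:**
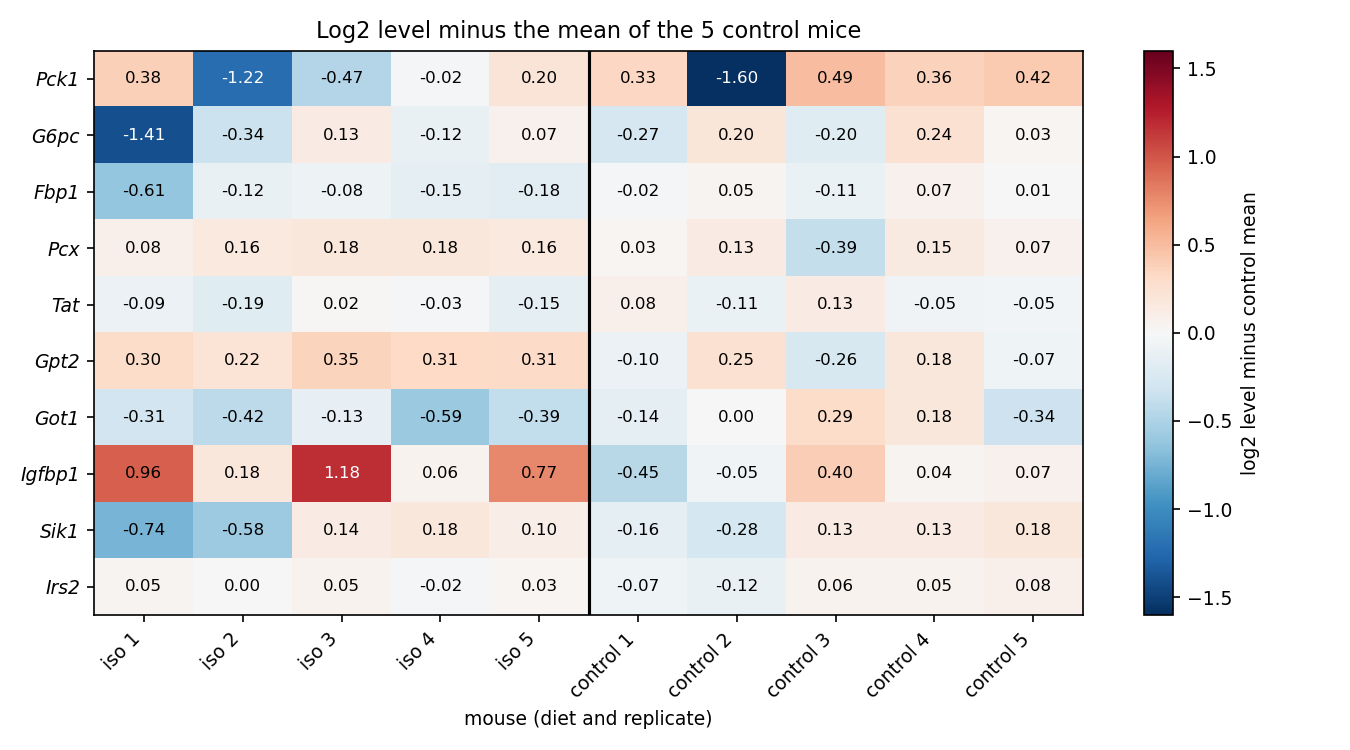
Log2 level of each gene (rows) in each mouse (columns, iso-α-acids left of control) minus the mean of the 5 control mice, with the value printed in each cell. Red is above and blue below the control mean. Fbp1 and Got1 are below 0 and Pcx, Gpt2 and Igfbp1 above 0 in all 5 iso-α-acids mice, and the deepest values are single cells, Pck1 in control replicate 2 (-1.60) and G6pc in iso-α-acids replicate 1 (-1.41).

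Mouse by mouse, the 10 genes did not move as a block, as the heat map of the members shows. In iso-α-acids replicate 1, G6pc, Sik1 and Fbp1 differed from the mean of the other 4 mice of its diet by -1.34, -0.70 and -0.48 log2 units, while Pck1 lay 0.76 above it. In control replicate 2, Pck1 was at 9.72, with the next control at 11.65, and G6pc was the second highest of its group. Igfbp1 was 0.69 above the other iso-α-acids mice in replicate 3 and differed by -0.71 from them in replicate 4. Pck1 and G6pc thus had their lowest values in different mice.

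Iso-α-acids replicate 1 was also far from the other mice in some genes outside the set. Mt1 and Mt2, metallothioneins that answer to metals and stress as well as glucocorticoids, were 4.02 and 4.42 log2 units above the control mean in it, and Fkbp5, a chaperone of the glucocorticoid receptor, was at 10.48 in that mouse and between 7.86 and 8.69 in the other 9. Over 12 glucocorticoid response genes its mean was 1.15 above the control mean, where the other iso-α-acids mice were between -0.04 and 0.25 and the controls between -0.15 and 0.17. The metallothioneins carried much of that value. Over the other 10 genes, a split made after the values were seen, the mouse was at 0.54, the other iso-α-acids mice between -0.15 and 0.21 and the controls between -0.11 and 0.14, and the genes were not uniform, with Tsc22d3 at -0.05 and Dusp1 at -0.90. The metallothioneins are also on the list of 14 acute phase genes, where the mouse was at 1.20 and control replicates 3 and 5 at 0.72 and 0.46. Over the 12 acute phase genes without them it was at 0.70, close to control replicate 3 at 0.65 and control replicate 5 at 0.52, and its Saa1, Saa2 and Saa3 levels lay below the control mean (-0.20, -0.36 and -0.22). Pklr, the liver pyruvate kinase that runs against gluconeogenesis, was lowest in iso-α-acids replicate 1 (8.34) and next lowest in control replicate 3 (9.18). The part of this mouse's profile in the members' differences was not tested beyond leaving it out. Without it limma over all probe sets again called no member, and the difference of G6pc, Sik1 and Fbp1 shrank as given above. For Fbp1 the SE also fell, from 0.100 to 0.040, and the limma adjusted p went from 0.509 to 0.202.

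The wider pathway was read from 8 lists of genes. Of 105 genes measured on them, 68 varied and 37 were flat, and the flat ones included Ppargc1a, Creb1, Nr3c1 (the glucocorticoid receptor), Gcgr (the glucagon receptor) and Pck2, for which these values carry no information on change. With all 10 mice, no gene of the lists passed limma over all probe sets, the lowest adjusted p being 0.0707 for Pgm1, a phosphoglucomutase. The fit restricted to varying probe sets called 6 of the 68 varying genes, where it called 13.4% of all varying probe sets higher and 6.89% lower. Higher were Mdh2, the mitochondrial malate dehydrogenase (0.16), Got2 (0.11), Mpc1, a subunit of the mitochondrial pyruvate carrier (0.29), the cell cycle inhibitor Cdkn1a (0.68) and Pgm1 (0.30), and lower was Hgd, homogentisate dioxygenase of tyrosine breakdown (-0.09). Rank products called 13 of the 68 varying genes higher (19.1%) and 25 lower (36.8%), against 33.5% and 28.4% of all varying probe sets. The acute phase list, which is not part of the pathway, held 3 of the higher calls, with Mt1 and Mt2 shared with the glucocorticoid list, and 11 of the lower ones. Its gene Lcn2 was called both ways (FDR 0.0411 higher and 0.00773 lower) and is counted in both directions. The difference of Lcn2 was -0.11 (SE 0.941). Over the other 7 lists 12 of 56 varying genes were called higher (21.4%) and 14 lower (25%).

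By list, none of the 17 gluconeogenic partners measured passed limma over all probe sets with all 10 mice. Rank products called 4 of the 11 varying ones higher and 0 lower, against 33.5% and 28.4% of all varying probe sets. The median difference of these 11 was 0.02. Gpd1, which links glycerol to the route, differed by 0.41 (SE 0.221, limma adjusted p = 0.622). Without iso-α-acids replicate 1, its lowest mouse, Gpd1 differed by 0.61 (limma adjusted p = 0.0673). In that fit Mdh2 passed limma over all probe sets (0.19, adjusted p = 0.00422), where 349 probe sets passed higher and 147 lower. Slc37a4, the glucose-6-phosphate transporter that works with G6pc, differed by 0.02 (SE 0.221, limma adjusted p = 0.987). Without iso-α-acids replicate 1, its highest mouse, it differed by -0.12. Of 29 hormone signalling genes 11 varied, with a median of -0.03 and 2 rank products calls, both lower, against the same 28.4%. Foxo1 differed by -0.03 (SE 0.0787) and Insr, the insulin receptor, by 0.09 (SE 0.0595), with limma adjusted p of 0.959 and 0.695. On the list of glycolytic and insulin-raised genes, 5 of 7 varied, with a median of -0.17, and none passed limma. Rank products called 4 of them lower, a count to be read against the 28.4% of all varying probe sets it called lower. Pklr there had a difference of -0.72 with an SE of 0.519 (limma adjusted p = 0.742), and of -0.36 without iso-α-acids replicate 1. The 12 glucocorticoid response genes had a median of 0.09, with 4 rank products calls higher and 2 lower, against 33.5% and 28.4% of varying probe sets. The differences of 3 of those called higher were carried largely by iso-α-acids replicate 1. Without it Fkbp5 differed by 0.23 in place of 0.62, Mt1 by 0.30 in place of 1.05 and Mt2 by 0.10 in place of 0.96.

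**Figure D4:**
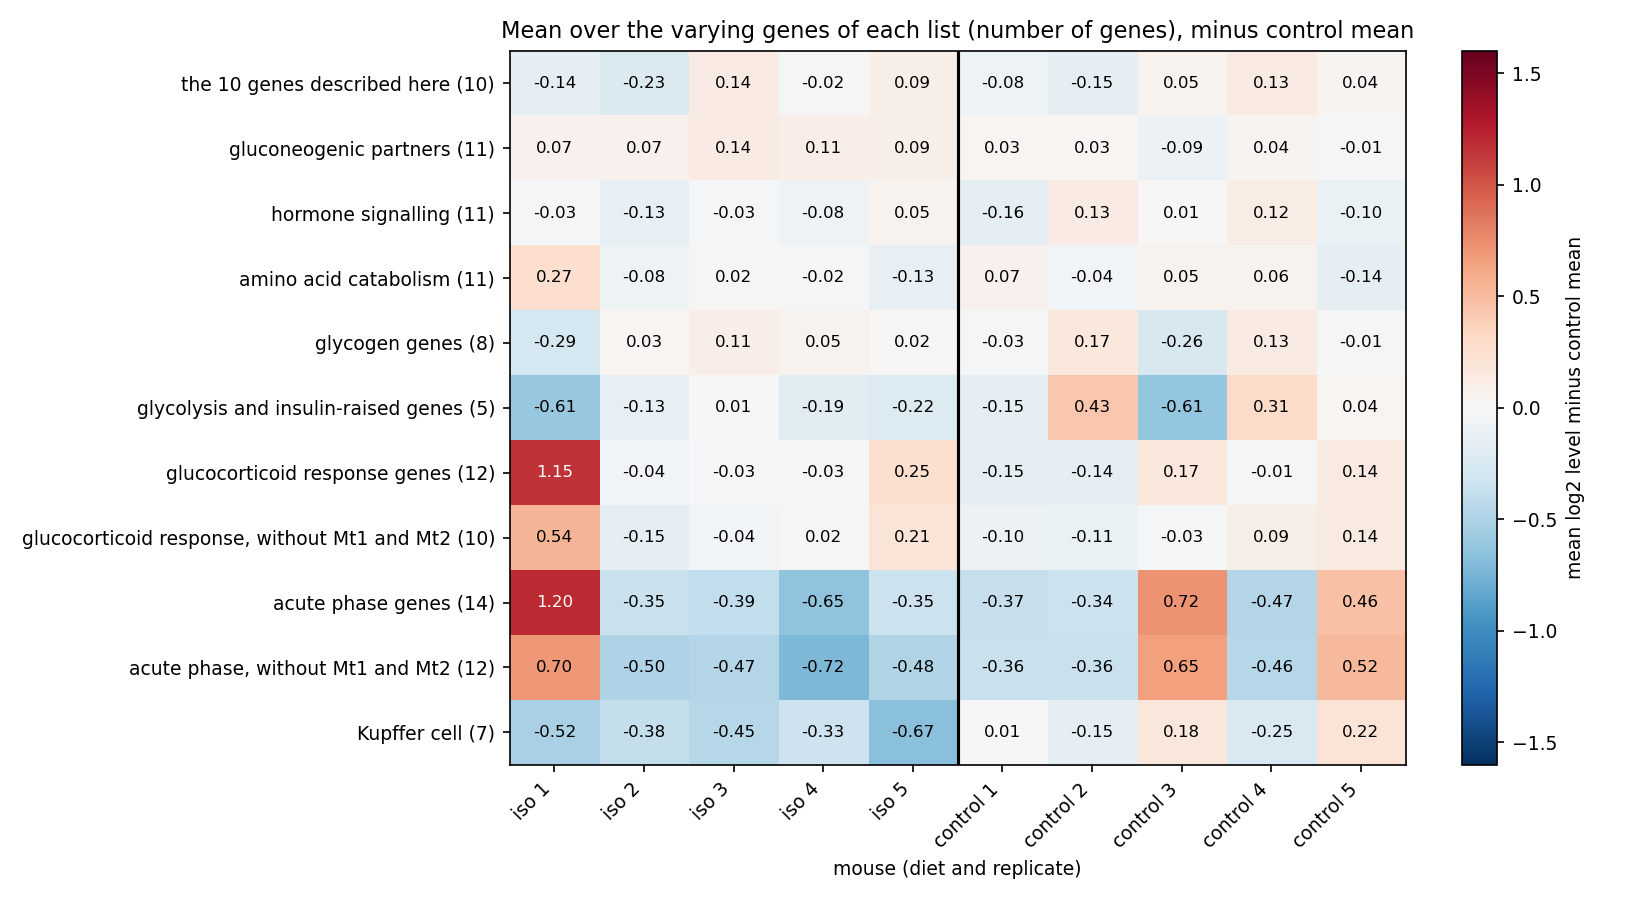
Mean over the varying genes of each list (rows, number of genes in brackets) of the log2 level minus the control mean, in each mouse (columns, iso-α-acids left of control). Iso-α-acids replicate 1 is at 1.15 on the glucocorticoid response list and at 1.20 on the acute phase list, and at 0.54 and 0.70 on these lists without the shared genes Mt1 and Mt2, where control replicate 3 is at 0.65 on the acute phase list. On the Kupffer cell list all 5 iso-α-acids mice are below every control.

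The tissue label was checked against markers. All 6 hepatocyte markers measured were high, 4 of them flat, with control means of 12.34 to 13.23. Of 25 markers of endothelial, stellate, bile duct, neutrophil and lymphoid cells, 20 were flat and none passed limma over all or over varying probe sets. Rank products called 2 of them lower, the sinusoidal endothelial markers Lyve1 (-0.16, FDR 0.016) and Kdr (-0.08, FDR 0.0473). The varying Kupffer cell markers had lower means in the iso-α-acids group, though none passed limma over all probe sets. Of 9 measured, 7 varied, with differences of -0.66 to -0.30 and adjusted p of 0.0683 to 0.264 from that test. All 7 were called lower by rank products and by limma over varying probe sets. These tests called 28.4% and 6.89% of all varying probe sets lower. Their mean level lay between -0.67 and -0.33 in iso-α-acids mice and between -0.25 and 0.22 in controls, relative to the control mean. Of the markers on this list, Clec4f, Adgre1 and Vsig4 were all measurable, and Marco and Timd4 were flat. In bulk liver, fewer cells of a type and less RNA per cell cannot be told apart. The part of this shift in the values of the 10 genes was not tested.

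The genes whose pattern over the 10 arrays was closest to the members with the widest spread were found among 2171 varying named genes by the root mean square distance of log2 levels after subtracting the control mean. Closest to Pck1 were Herpud1 (0.537), Slc41a2 (0.555) and Sgk1 (0.557), which is close only relative to Pck1's own root mean square of 0.716. Closest to G6pc, with an own value of 0.484, were Inhbe (0.162), Slc30a10 (0.169) and Pnpla7 (0.185), and Fbp1 ranked 52 by this measure. G6pc and these closest genes were all lowest in iso-α-acids replicate 1, with Inhbe at 7.76, Slc30a10 at 8.06 and Pnpla7 at 9.62. In the other mice they were at 8.86 to 9.22, 8.93 to 9.32 and 10.86 to 11.11. The distance was not computed without that mouse. Closest to Igfbp1, with an own value of 0.574, were Mgst3 (0.318), Plk3 (0.318) and Ddah1 (0.322). By the same measure Pck1 ranked 2064 from G6pc and 2057 from Igfbp1, near the far end of the genes compared. The measure is not scaled for spread, so a gene that varies as widely as Pck1 tends to rank far from others.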

How the data were processed

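Liver RNA of 10 mice was hybridised to Clariom S Mouse arrays. The deposited log2 values were made by the authors, who quantile normalized the arrays and summarized each probe set with qFARMS. Versions, probe definition and settings are not given in the sources used here, and base 2 is inferred from values of 4.94 to 13.37. No further normalization or filter was applied. Symbols came from the platform annotation, and all 19572 Entrez identifiers were found in the RefSeq table of GRCm38.p6.

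Diets were compared with limma 3.58.1 in R 4.3.3 (eBayes without trend, two-sided, Benjamini-Hochberg adjusted p below 0.05 over 22206 probe sets). Rank products, the methods' test, took the median over 120 pairings of arrays, with p from the gamma distribution and the FDR set in each direction. Exact permutation tests covered all labelings of the mice, and their p-values are not adjusted for the 10 genes tested. For the members without such a p above, this test gave two-sided p of 0.333 (G6pc), 0.0556 (Pcx), 0.175 (Tat), 0.413 (Sik1) and 0.643 (Irs2). The fits were tested on simulated data. Alternatives were a fit on varying probe sets, a filter on dim probe sets, a repeated quantile normalization, centring on array medians, an intensity trend, robust eBayes, array weights, the mean of pairwise ratios in rank products, a replicate block, a threshold of 0.01 and leaving out each mouse.

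The members and the gene lists were chosen with earlier results of these data known. All members are named, and from the lists the genes that passed a fit, the pathway's main regulators and marker genes, with the 3 closest genes for pattern; further genes given as examples were picked after their values were seen. Replicates are separate mice. With 5 mice a group, their number limits the precision.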

Additional observations from a re-analysis of the deposited data

Results flagged for a closer look

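Of 20 groups of 5 mice (10 genes in 2 diets), 4 held a mouse far from the others, judged by its gap to the nearest mouse as a share of the group's range, where chance gives about 1 in 20. For Fbp1, iso-α-acids replicate 1 was lowest at 11.45, with the nearest mouse at 11.88 and a share of 0.8. For Pcx, iso-α-acids replicate 1 was lowest at 10.36, next to 10.44, with a share of 0.792 in a group that spans little. Pcx was also lowest in control replicate 3, at 9.90 beside 10.32, with a share of 0.79. For Pck1, control replicate 2 was lowest at 9.72, beside 11.65, with a share of 0.922.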

How the results depend on the processing

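Of 190 member differences under alternatives, 184 kept their direction and their side of limma's threshold, 3 passed it and 3 changed sign. Sign changes were Irs2 with quantile normalization applied again (-0.0126) and without control replicate 2 (-0.0099), and Pck1 without iso-α-acids replicate 2 (0.0226); leaving out 1 mouse gave -0.0099 to 0.0419 for Irs2 and -0.626 to 0.0226 for Pck1. Limma called no member except in the fit on varying probe sets, which called 1 higher (Gpt2), and in that fit without iso-α-acids replicate 1, chosen after seeing the data, which called 1 higher (Gpt2, adjusted p = 0.0455) and 1 lower (Fbp1, adjusted p = 0.0295). Rank products over varying probe sets called 0 members higher and 0 lower. Leaving out 1 mouse, it called 2 to 3 higher and 3 to 5 lower. It lost G6pc without iso-α-acids replicate 1 or 2 or control replicate 2 or 4, lost Pcx without control replicate 3 or with quantile normalization applied again, and called Sik1 lower without iso-α-acids replicate 3 or 4. The cause was not tested. Over all probe sets, limma called 131 higher and 38 lower, 51 and 3 at a threshold of 0.01, 327 and 168 over varying probe sets, 648 and 347 there without iso-α-acids replicate 1, and 71 lower with quantile normalization applied again. Leaving out 1 mouse gave 65 to 349 higher and 6 to 147 lower. Rank products called 826 higher and 708 lower, 93 and 75 over varying probe sets, 571 to 802 higher and 464 to 606 lower without 1 mouse. Over the varying probe sets as a whole, mice of the same replicate number in the 2 diets did not deviate together throughout (r of -0.0843, 0.233, -0.205, -0.0096 and -0.115 for numbers 1 to 5). These pooled values cannot settle whether the numbers pair the mice. A replicate block changed the SE of Pck1 from 0.483 to 0.216 and lowered that of most other members. It raised the SE of Gpt2 (0.0933 to 0.106) and Pcx (0.0986 to 0.100). With a replicate block limma called 21 higher and 1 lower and no member. The values hold relative signal only, and flat probe sets give no limit on change.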

Other observations

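Onecut1, a liver transcription factor known to act on gluconeogenic genes, is on the hormone signalling list and spread more widely over the mice than any member. Its log2 level was 8.06, 7.83, 9.35, 8.17 and 10.11 in iso-α-acids mice and 7.65, 10.27, 9.10, 10.23 and 8.60 in controls, with high and low mice in both diets and a difference of -0.47 (SE 0.650, limma adjusted p = 0.898). Slc2a2, the liver glucose transporter, was between 12.12 and 12.33 in iso-α-acids mice, and in controls it was at 10.92 in replicate 3 and between 12.08 and 12.41 in the others. Control replicate 3 was also the lowest control for Pklr and for the members Fbp1, Pcx and Gpt2. It was the highest control for the members Pck1, Tat, Got1 and Igfbp1. Without it the difference of Gpt2 was 0.23.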
